A study of Rattus norvegicus with 6 samples.

Results

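The miR-23, miR-24 and miR-27 families were followed in small RNA libraries of RSC96, a rat Schwann cell line. Every row whose hairpin name, without its copy number, was rno-mir-23a, rno-mir-23b, rno-mir-24, rno-mir-27a or rno-mir-27b was taken, and its reads were summed per library and per arm of the hairpin. This gave 6 hairpins of 821 in the series, 10 mature arms of 932 and 355 distinct read sequences of 9522. The cells had been kept for 48 h in high glucose (3 libraries) or in low glucose (3 libraries, the controls). Schwann cells ensheathe the axons of peripheral nerves, and no genetic change is given for either group. The title of the series speaks of exosomes, vesicles shed by cells, but whether vesicles or whole cells were sequenced is not stated. Their extraction text names the retina, while the sample characteristics give the cell line and nerve. All 6 libraries share this single line, and nothing says that replicates of a group were separate cultures.

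The genes lie in a pair of clusters, each transcribed as a primary RNA that is cut into hairpins and then into a 5p and a 3p mature arm. The a cluster encodes miR-23a, miR-27a and miR-24-2, and the b cluster encodes miR-23b, miR-27b and miR-24-1. A mature miRNA recognises its messenger RNA targets mainly through its seed, bases 2 to 8 from the 5′ end, so that a and b copies with one seed are expected to share many targets. In other tissues these families are best known for roles in blood vessel growth and, for miR-27, in lipid metabolism and the formation of fat cells.

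The 6 deposited hairpins were identical over their whole length to RefSeq hairpins of the GRCr8 rat assembly. The a cluster spans 389 bp at chr19:40859455-40859843 on the minus strand, outside every other gene of the RefSeq table, with Mir23a at chr19:40859769-40859843, Mir27a at chr19:40859603-40859689 and Mir24-2 at chr19:40859455-40859562. The b cluster spans 814 bp at chr17:1818669-1819482, also on the minus strand, inside the span of the aminopeptidase gene Aopep. It also overlaps the span of Fancc. It holds Mir23b at chr17:1819386-1819482, Mir27b at chr17:1819147-1819243 and Mir24-1 at chr17:1818669-1818736. The mature sequences are shown because the comparison of a with b rests on how little they differ. They are RefSeq's (GRCr8), written 5′ to 3′ with the seed in capitals.
miR-23a-3p: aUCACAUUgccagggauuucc
miR-23b-3p: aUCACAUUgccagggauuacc
miR-27a-3p: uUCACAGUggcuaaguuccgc
miR-27b-3p: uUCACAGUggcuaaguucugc
miR-24-3p (the same from both copies): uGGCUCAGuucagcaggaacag
miR-24-2-5p: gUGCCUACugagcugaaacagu
miR-24-1-5p: gUGCCUACugagcugauaucag
miR-23b-5p: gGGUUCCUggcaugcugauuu
miR-27a-5p: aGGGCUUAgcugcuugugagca
miR-27b-5p: aGAGCUUAgcugauuggugaacag
The miR-23-3p pair shared the seed UCACAUU, the miR-27-3p pair UCACAGU and the miR-24-5p pair UGCCUAC. Counted from 1 at the 5′ end of the mature form, in DNA letters and from a to b, miR-23-3p differed by T19A alone and miR-27-3p by C19T alone. A read that starts at the mature 5′ end and stops before base 19 therefore cannot be placed in one cluster. The miR-24-5p copies differed first at A17T and at 5 bases in all, and miR-24-3p did not differ at all, so its reads cannot be placed in either cluster. The miR-27-5p copies differed at 8 bases, the first of them G3A inside the seed.

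High glucose libraries held 963706 to 1354456 counts and low glucose libraries 114615 to 148143, with group means 9.31-fold apart. The members took 21025, 31491 and 33317 counts in high glucose and 4409, 5015 and 3361 in low glucose. Their share of all counts was 2.18%, 2.46% and 2.46% in high glucose and 3.56%, 3.39% and 2.93% in low glucose, so every high glucose library was below every low glucose library. Sequences with a single read are not listed in the files, which removes more of a shallow library. The marker miRNAs of other cell types differed between the groups too, as TMM-scaled CPM, a level relative to library size, summed per list. Erythroid markers (3 of 3 miRNAs listed) summed to 762 to 954 in high and 3250 to 6395 in low glucose, liver markers (3 of 3) to 9192 to 15589 and 3197 to 4693, and neuron markers (3 of 4) to 15903 to 22089 and 2795 to 4684. The neuron difference was mostly that of miR-128-3p, at 14294 to 20310 CPM in high and 1387 to 3126 in low glucose. miR-9a-5p, also on that list, averaged 1505 CPM in high and 1476 in low glucose. Of the myelinating glia markers mir-219a and mir-338 only mir-219a was listed, at a sum of 17.97 to 58.1 in high and 0 to 44.8 in low glucose. Leukocyte (3 of 3), endothelial (1 of 1), muscle (2 of 4), epithelial (3 of 5) and retina markers (4 of 5) summed to at most 134 in any library. The part of these lists in the results was not tested, and in bulk libraries fewer cells of a type and less RNA per cell cannot be told apart.

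In high glucose, miR-23a-3p, miR-23b-3p and both arms of miR-24 were lower, miR-27a-3p and the rare miR-23b-5p were higher, and miR-27b-3p, miR-27a-5p and miR-27b-5p did not pass the test. Arms of one cluster thus did not share a direction. The test was edgeR's quasi-likelihood test over all 297 arms with enough counts, at a Benjamini-Hochberg adjusted p of 0.05. Of the 9 members tested 6 were called, where 63.6% of all tested arms were. Of these 2 were higher, against 41.1% of all tested arms, and 4 were lower, against 22.6%. The CPM of 3 tested members lay above the low glucose range in every high glucose library (45.8% of all tested arms), and that of 4 lay below it (25.9%). Among those above, miR-23b-5p and miR-27a-5p reached 10 reads, the minimum count of the filter, in high glucose alone. The call of miR-23b-5p as higher thus rests on low glucose values near the floor. The median log2 fold change was 0.11 over the tested members and 0.68 over all tested arms. The latter moved with the settings in both directions. It fell to 0.12 with upper quartile scaling, 0.34 with every library thinned to the smallest and 0.48 with annotated hairpins alone. It rose to 0.76 with DESeq2, 1.05 without low glucose replicate 3 and 3.53 with no filter on low counts. miR-23a-5p was not tested, with 22 counts in the third high glucose library and none listed elsewhere.

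**Figure D1:**
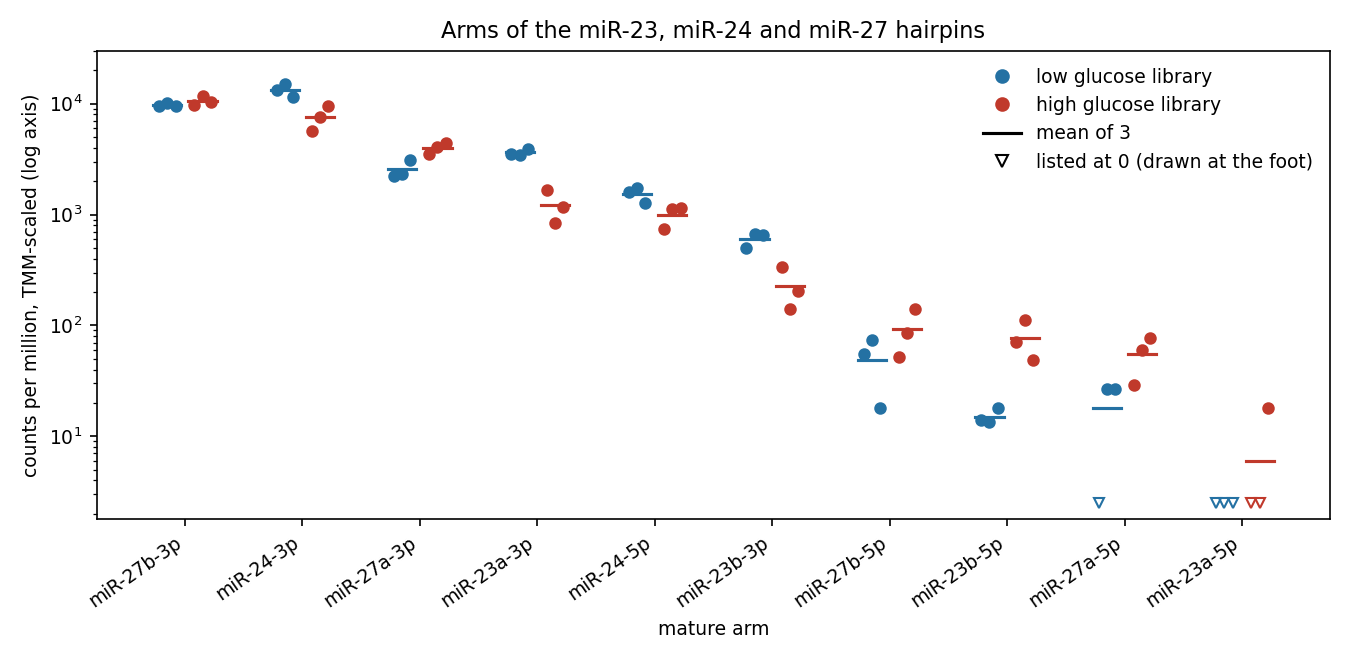
CPM (log axis) of the 10 mature arms, with 1 point per library, a line at the mean of 3 and open triangles for libraries listed at 0. The 3 low glucose points of miR-23a-3p, miR-23b-3p, miR-24-3p and miR-24-5p lie above the 3 high glucose points, those of miR-27a-3p lie below, and those of miR-27b-3p overlap.

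In low glucose the order of the levels was miR-24-3p at 13259 ± 1799 CPM (SD, n = 3), miR-27b-3p at 9803 ± 367, miR-23a-3p at 3640 ± 254, miR-27a-3p at 2551 ± 477, miR-24-5p at 1532 ± 235 and miR-23b-3p at 604 ± 94.98. No neighbours among these 6 overlapped in their libraries. In high glucose miR-27b-3p stood first at 10610 ± 1061 CPM and miR-24-3p second at 7630 ± 1959, followed by miR-27a-3p at 3990 ± 471, miR-23a-3p at 1226 ± 426, miR-24-5p at 998 ± 221.6 and miR-23b-3p at 228 ± 101. There miR-23a-3p and miR-24-5p overlapped, and the highest library of miR-24-3p (9615 CPM) was just below the lowest of miR-27b-3p (9657 CPM). The 4 remaining arms reached at most 141.6 CPM in any library, level with the lowest library of miR-23b-3p, and their own order was within the spread of the libraries. Each read covers a mature RNA from end to end, so these levels need no division by length.

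miR-23a-3p, the main product of the first hairpin of the a cluster, was read at 1681, 836 and 1161 CPM in high glucose and at 3516, 3472 and 3932 CPM in low glucose. The groups did not overlap, and high glucose library 2 was the lowest of the 6. The level was 2.97-fold lower in high glucose (log2 fold change -1.57, SE 0.26, 95% interval -2.16 to -0.98, edgeR adjusted p = 0.00135). Its paralog miR-23b-3p was read at 338.5, 141.3 and 205 CPM in high glucose and at 494, 663 and 654 CPM in low glucose. Again high glucose library 2 was lowest and the groups were apart. The level was 2.65-fold lower (log2 fold change -1.40, SE 0.34, interval -2.19 to -0.62, edgeR adjusted p = 0.00750).

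The passenger arm miR-23b-5p went the other way. It had 69, 138 and 60 reads in high glucose and exactly 2 reads in each low glucose library, or 71.4, 113 and 49.1 CPM against 13.9, 13.4 and 17.9 CPM. A count of 2 is the smallest that the files list, so the fitted change, 2.37 on the log2 scale (SE 0.59, edgeR adjusted p = 0.00798), rests on low glucose values at that floor. The 3p arm made up 82.6%, 55.6% and 80.7% of mir-23b reads in high glucose and 97.3%, 98.02% and 97.3% in low glucose, with no overlap. For the other 4 miRNAs the 3p share overlapped between the groups, at 88.4 ± 1.10% and 89.7 ± 0.400% for miR-24 and above 98% in every library for miR-23a, miR-27a and miR-27b. Over reads without a mismatch the groups were apart for miR-27a, at 97.8%, 95.9% and 94.6% in high and 100%, 98.8% and 100% in low glucose.

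miR-24-3p was read at 5697, 7579 and 9615 CPM in high glucose and at 13216, 15079 and 11483 CPM in low glucose. The highest high glucose library stayed below the lowest low glucose library. The level was 1.74-fold lower (log2 fold change -0.80, SE 0.22, interval -1.30 to -0.30, edgeR adjusted p = 0.0122), a call that was lost without low glucose replicate 1 (adjusted p = 0.0651) or 2 (adjusted p = 0.137). All of its sequences are listed under both copies, with the reads divided evenly between them.

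The 5p arm can be told apart. miR-24-2-5p, from the a cluster, was read at 734, 1051 and 1099 CPM in high glucose and at 1592, 1655 and 1281 CPM in low glucose. miR-24-1-5p, from the b cluster, had 13, 83 and 60 reads in high glucose and 2, 2 and 0 in low glucose. The a cluster thus gave 98.2%, 93.9% and 95.7% of miR-24-5p reads in high glucose and 99.1%, 99.2% and 100% in low glucose, a separation that rests on 4 low glucose reads of miR-24-1-5p. For the summed arm, 742, 1111 and 1140 CPM stood against 1595, 1729 and 1272 CPM (log2 fold change -0.62, SE 0.22, edgeR adjusted p = 0.0409). miR-24-2-5p fitted alone was 1.57-fold lower (log2 fold change -0.65, SE 0.21, edgeR adjusted p = 0.0273), and miR-24-1-5p had too few reads to test. The call of the summed arm was lost without high glucose replicate 1 (edgeR adjusted p = 0.0957), low glucose replicate 1 (0.155) or low glucose replicate 2 (0.300), and in a fit with the replicate number as a block (0.0653). It was also lost with reads without a mismatch (edgeR adjusted p = 0.0669), annotated hairpins alone (0.0550), no filter on low counts (0.106) or miR-23 and miR-27 reads past the differing base (0.0579).

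On the strand opposite to Mir24-1, RefSeq places miR-3074, with the mature sequence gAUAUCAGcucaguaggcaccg, shown because it is read from the same piece of DNA. That sequence lies opposite miR-24-1-5p, in the later part of the piece as read on its own strand. Reads of the 5p arm, centred before the midpoint of their hairpin, are therefore not given as counts of it. miR-3074-5p had 44, 25 and 21 reads in high glucose and was listed at 0 in the 3 low glucose libraries. It had too few reads to test.

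miR-27a-3p was read at 3496, 4039 and 4434 CPM in high glucose and at 2228, 2326 and 3099 CPM in low glucose. The groups did not overlap. The level was 1.57-fold higher (log2 fold change 0.65, SE 0.19, interval 0.22 to 1.08, edgeR adjusted p = 0.0165), just under the median of all tested arms (0.68). In other settings it lay on either side of the median of that setting. It was above at 0.63 against 0.34 with thinned libraries and 0.72 against 0.48 with annotated hairpins alone. It was below at 0.52 against 0.57 with library totals alone, 0.53 against 0.76 with DESeq2 and 0.61 against 0.99 without low glucose replicate 1. The call was lost without low glucose replicate 1 (edgeR adjusted p = 0.0551), with upper quartile scaling (0.08, adjusted p = 0.712) and with reads without a mismatch alone (0.24, adjusted p = 0.272). Its 5p arm had 28, 74 and 94 reads against 0, 4 and 3, or 29.0, 60.4 and 76.9 CPM against 0, 26.8 and 26.9 CPM. The groups were apart by little, and the arm did not pass the test (log2 fold change 1.66, SE 0.82, interval -0.23 to 3.55, edgeR adjusted p = 0.110). With reads without a mismatch alone it was called higher (3.48, edgeR adjusted p = 0.0166).

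miR-27b-3p, the most abundant member in high glucose, was read at 9657, 11753 and 10421 CPM there and at 9581, 10227 and 9602 CPM in low glucose. The groups overlapped, and the log2 fold change was 0.11 (SE 0.14, interval -0.21 to 0.44, edgeR adjusted p = 0.516). Its sign depended on the scaling, at -0.02 with DESeq2 (adjusted p = 0.930) and at -0.47 with upper quartile scaling (edgeR adjusted p = 0.0388), which moves the median of all tested arms from 0.68 to 0.12. Its 5p arm overlapped as well, at 51.8, 85.7 and 141.6 CPM against 55.7, 73.7 and 17.9 CPM (log2 fold change 0.88, SE 0.56, edgeR adjusted p = 0.202).

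Under this level, the sequences that made up miR-27b-3p differed between the groups. They are shown as read, in DNA letters, with the base that tells b from a in position 19 and no capitals where a read matched its hairpin.
19 nt form: ttcacagtggctaagttct
20 nt form: ttcacagtggctaagttctg
21 nt form, the RefSeq mature: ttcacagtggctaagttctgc
22 nt form: ttcacagtggctaagttctgca
The 19 nt form took 44.6%, 53.1% and 41.9% of miR-27b-3p reads in high glucose and 9.96%, 8.32% and 12.2% in low glucose. The 21 nt form took 23.2%, 17.8% and 23.6% in high glucose and 55.1%, 56.4% and 47.9% in low glucose. The groups did not overlap in either form. The leading sequence was thus the 19 nt form in every high glucose library and the 21 nt form in every low glucose library. The 20 nt form took 10.9 ± 1.15% and 12.6 ± 1.02%, and the 22 nt form 3.34 ± 0.915% and 8.48 ± 1.26% (SD, n = 3 each). As levels, the 19 nt form was at 4971 ± 1100 CPM in high and 993 ± 165 in low glucose, 5.01-fold higher, and the RefSeq form at 2265 ± 186 and 5214 ± 590 CPM, 2.30-fold lower.

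Read length followed. The mean length of miR-27b-3p was 19.97, 19.81 and 20.06 nt in high glucose and 20.84, 20.82 and 20.80 nt in low glucose, a difference of -0.87 nt. Reads of 19 nt or shorter made up 49.2%, 56.8% and 45.2% in high glucose and 10.97%, 10.2% and 13.7% in low glucose, a difference of 38.8 percentage points. In a two-sided exact permutation test over the 6 libraries p was 0.1, the smallest that 3 against 3 allows, and 0.215 after adjustment over the 58 such tests made on the members. These values hold for each of the 27 measures whose groups were apart. With every library thinned to 114497 reads the share of the 19 nt form was 47.0% and 10.2%.

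Among the 99 annotated arms with at least 20 reads in every library, the groups were apart towards a lower mean length in high glucose in 32.3% and towards a higher one in 15.2%, and towards more reads of 19 nt or shorter in 47.5% and fewer in 1.01%. For the share of the most abundant sequence of an arm, as the 19 nt form is here, they were apart upwards in 30.3% and downwards in 20.2%. That sequence was chosen from the reads of all 6 libraries pooled, most of them from high glucose. The choice favours a sequence that leads in high glucose, as the 19 nt form does. The median differences were -0.07 nt in mean length and 1.00 percentage points in short reads. Of 6 member arms measured in the same way (with miR-24-2-5p alone for miR-24-5p), the mean length was lower with groups apart in 4 and the share of short reads was higher in 5. For miR-23b-3p and miR-27a-3p, most short reads were listed under both copies and divided evenly between them. The difference of miR-27b-3p in short reads was the highest of the 99 arms, and its difference in mean length the second lowest, after miR-181a-5p.

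**Figure D2:**
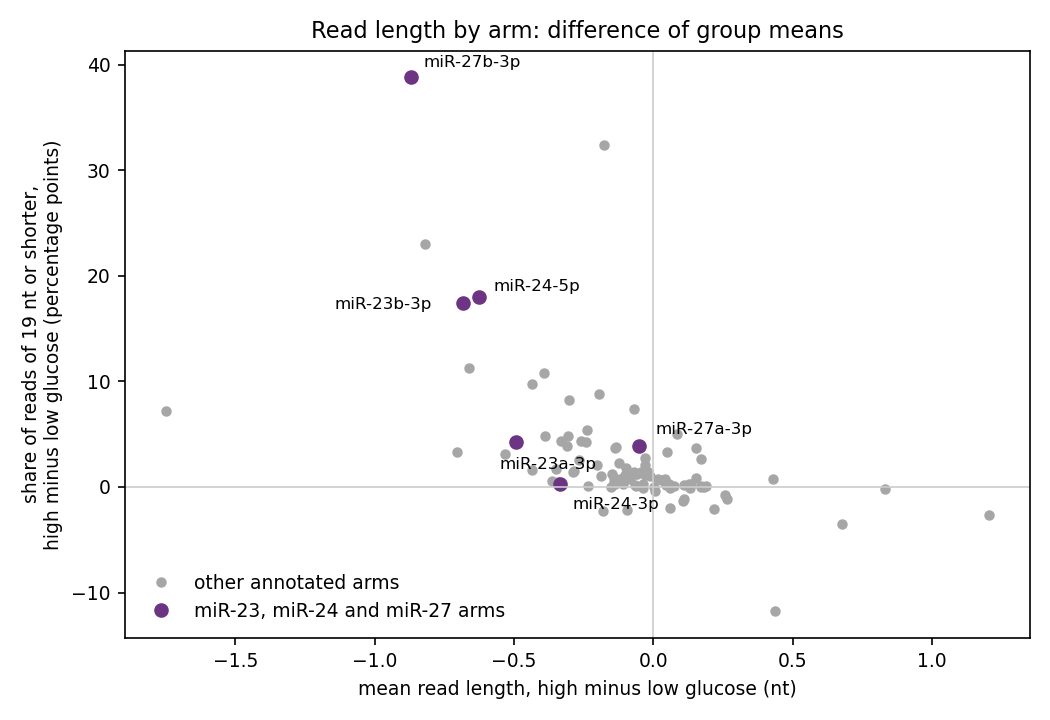
Difference between group means, high minus low glucose, in mean read length (x axis, nt) and in the share of reads of 19 nt or shorter (y axis, percentage points), for 99 annotated arms. miR-27b-3p lies at -0.87 nt and 38.8 points, and miR-27a-3p at -0.05 nt and 3.84 points.

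Short reads also bear on which copy a read is given to. The 19 nt form of miR-27b-3p is told from miR-27a-3p by its last base alone. Of all miR-27-3p reads, 33.8%, 40.3% and 30.6% in high glucose and 8.08%, 6.78% and 9.24% in low glucose ended at base 19 and were listed under mir-27b. Reads that ran past base 19 and were listed under mir-27b made up 37.1%, 31.9% and 37.7% in high glucose and 72.1%, 72.9% and 65.1% in low glucose. Those past it under mir-27a made up 20.8%, 21.5% and 25.7% in high glucose and 15.98%, 14.6% and 21.0% in low glucose. At most 5.15% of the reads in a library were listed under both.

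The last base of a read was not always that of its hairpin. Some miR-27a-3p reads begin 5 bases earlier in a stretch that mir-27b lacks, and their 5′ end places them in the a cluster. The most frequent of them in high glucose is shown with its mismatch in capitals.
5′-extended miR-27a-3p: tcgtgttcacagtggctaagttcT
Reads listed under mir-27a that began more than a single base early and ended at base 19 of the mature form were counted. Of these 610 reads, 571 ended in T, 23 in C and 16 in A. The sequence shown made up 568 of those ending in T. The bases just before the mature form are the same in both hairpins, so a shorter early start would not place a read. Some of the reads counted may begin too few bases early to be placed by their 5′ end. The sequence shown, which begins 5 bases early, is placed by it. Reads ending in T were 553 of the 590 counted in the high glucose libraries and 18 of the 20 counted in the low glucose libraries. Without the early start, the same read would match mir-27b. How many of the 19 nt reads arose in this way was not tested.

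With only the reads that run past the differing base, miR-27b-3p was read at 5005, 5207 and 5721 CPM in high glucose and at 8407, 8870 and 8236 CPM in low glucose. The log2 fold change was then -0.68 (SE 0.14). This choice leaves out the reads of 19 nt and shorter, whose share differed between the groups as given above, so for miR-27b-3p the value restates that difference in length and is no separate result. miR-27a-3p kept its direction at 0.69 on the log2 scale (SE 0.21, edgeR adjusted p = 0.0218), as did miR-23a-3p at -1.55 and miR-23b-3p at -1.60 (edgeR adjusted p = 0.00187 and 0.00725). With a and b reads joined, the log2 fold change was 0.24 for miR-27-3p (SE 0.14, edgeR adjusted p = 0.172) and -1.55 for miR-23-3p (edgeR adjusted p = 0.00155). These fits were added after the data were seen.

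**Figure D3:**
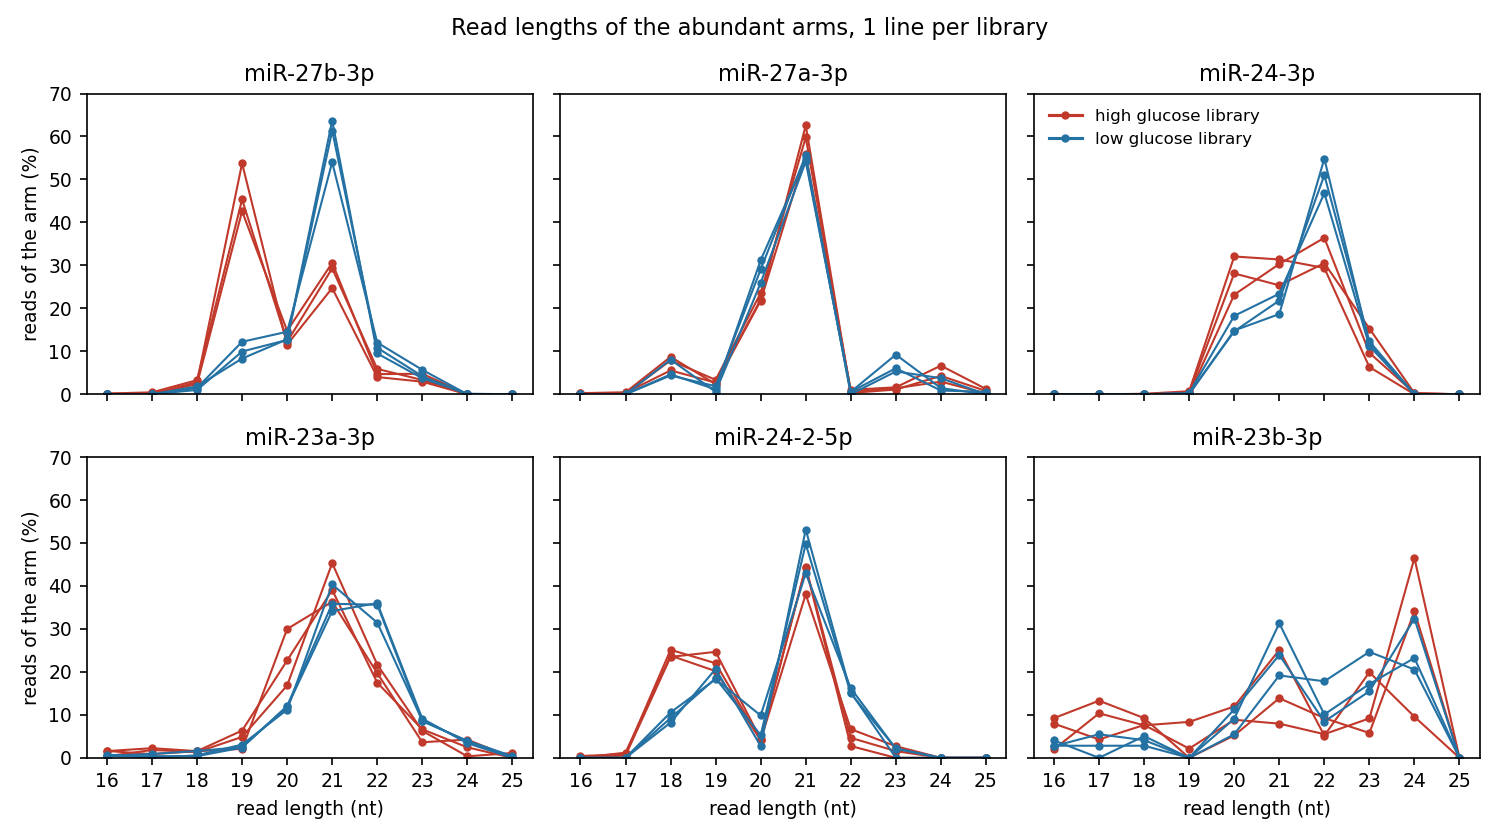
Share of an arm's reads (y axis, %) by read length (x axis, nt) for the 6 member arms with at least 20 reads in every library, with 1 line per library. The lines of miR-27b-3p peak at 19 nt in high and at 21 nt in low glucose, while those of miR-27a-3p peak at 21 nt in all 6 libraries.

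The share of the a cluster was compared within each family, since a share inside a library does not depend on scaling. For miR-23-3p the a share was 83.2%, 85.5% and 85.0% in high glucose and 87.7%, 84.0% and 85.7% in low glucose. These overlapped, with a difference of -1.20 percentage points (exact permutation p = 0.4). For miR-27-3p the a share was 26.6%, 25.6% and 29.8% in high glucose and 18.9%, 18.5% and 24.4% in low glucose. The groups were apart by a difference of 6.74 points (exact permutation p = 0.1). The a copy thus led in miR-23-3p and the b copy in miR-27-3p in every library.

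**Figure D4:**
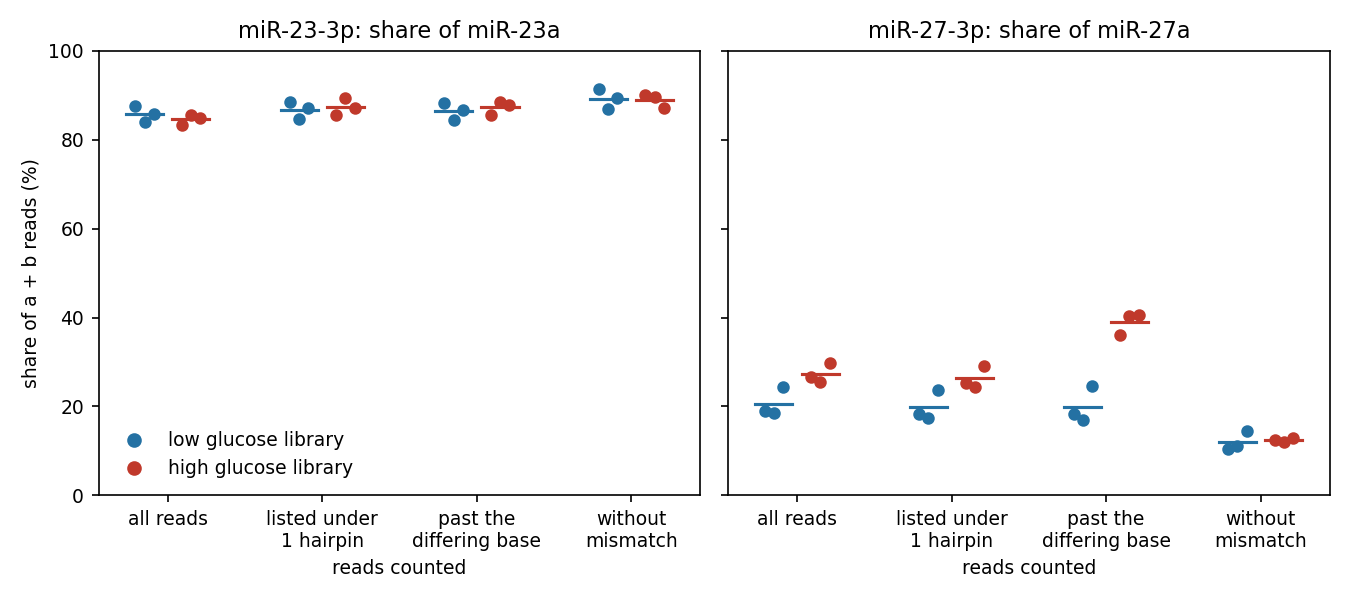
Share of a cluster reads in all reads of miR-23-3p (left) and miR-27-3p (right), in %, with 1 point per library and a line at the mean of 3, for 4 choices of reads. The miR-23-3p groups overlap in each choice, and the miR-27-3p groups are furthest apart for reads that run past the differing base (38.9% and 19.9%).

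The size of the miR-27-3p difference moved with the choice of reads. Past the differing base the a share was 36.0%, 40.3% and 40.5% in high glucose and 18.2%, 16.96% and 24.5% in low glucose, a difference of 19.04 points, again with the 19 nt form of miR-27b-3p left out. With reads that matched their hairpin without a mismatch it was 12.4% and 11.99%, a difference of 0.44 points. Ratios between members of one cluster differed as well. The log2 ratio of miR-27a-3p to miR-23a-3p reads was 1.06, 2.27 and 1.93 in high glucose and -0.66, -0.58 and -0.34 in low glucose, so miR-27a-3p exceeded its cluster neighbour in each high glucose library and in no low glucose library. The log2 ratio of miR-27b-3p to miR-23b-3p was 4.83, 6.38 and 5.67 in high glucose and 4.28, 3.95 and 3.88 in low glucose. Both ratios had an exact permutation p of 0.1.

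miR-27a-3p was rarely read as its RefSeq sequence. Its leading forms are shown with a mismatched base in capitals.
A-ended: ttcacagtggctaagttccgA
20 nt form: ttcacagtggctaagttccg
T-ended: ttcacagtggctaagttccgT
RefSeq mature: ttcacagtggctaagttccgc
The A-ended form took 45.0%, 44.9% and 52.4% of miR-27a-3p reads in high glucose and 35.6%, 34.01% and 37.3% in low glucose, with the groups apart. The T-ended form took 10.6 ± 1.82% and 12.9 ± 1.33%, and the RefSeq mature 0.971 ± 0.579% and 4.95 ± 1.82%. Reads without a mismatch were 33.1 ± 2.70% of the arm in high and 45.8 ± 2.11% in low glucose, against 87.4 ± 0.985% and 87.3 ± 0.996% for miR-27b-3p. Reads ending in a mismatched A were 50.6 ± 4.51% and 37.2 ± 1.85%. Over the 99 annotated arms the share of reads without a mismatch was higher in high glucose with groups apart in 21.2% and lower in 22.2%. The share of mismatched final A was higher in high glucose with groups apart in 17.2% and lower in 17.2%. The mean length of miR-27a-3p overlapped, at 20.68 ± 0.0863 and 20.73 ± 0.0292 nt. Over reads without a mismatch it did not overlap, at 19.61, 19.62 and 19.64 nt in high and 20.31, 20.36 and 20.26 nt in low glucose, a difference of -0.68 nt.

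The other members differed in length by other steps at the 3′ end. For each, a longer and a shorter form with groups apart are shown to place these ends. Forms not shown could be apart too, such as the 21 nt form of miR-24-3p, at 28.5 ± 2.95% in high and 20.5 ± 2.42% in low glucose, and the leading 21 nt form of miR-24-2-5p, at 39.9 ± 2.96% and 48.1 ± 4.54%.
miR-24-3p, 22 nt (RefSeq): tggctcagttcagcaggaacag
miR-24-3p, 20 nt: tggctcagttcagcaggaac
miR-23a-3p, 22 nt: atcacattgccagggatttcca
miR-23a-3p, 20 nt: atcacattgccagggatttc
miR-24-2-5p, 22 nt (RefSeq): gtgcctactgagctgaaacagt
miR-24-2-5p, 18 nt: gtgcctactgagctgaaa
The 22 nt form of miR-24-3p took 26.6%, 26.2% and 32.3% of its reads in high glucose and 49.7%, 53.7% and 45.6% in low glucose. Its 20 nt form took 27.5%, 31.2% and 22.3% in high glucose and 14.4%, 14.8% and 18.3% in low glucose. As levels, the 22 nt form was 3.01-fold lower in high glucose, and the 20 nt form stood at 2025 ± 411 and 2081 ± 166 CPM.

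For miR-23a-3p the RefSeq form of 21 nt overlapped between the groups, at 39.2 ± 4.89% and 35.4 ± 3.34%. Its 22 nt form took 18.1%, 15.7% and 21.4% in high glucose and 33.7%, 30.1% and 34.9% in low glucose, and was 5.26-fold lower as a level. The mean length was 20.90 ± 0.0947 nt in high and 21.40 ± 0.0427 nt in low glucose. For miR-24-2-5p the 18 nt form took 24.3%, 22.9% and 22.7% in high glucose and 9.25%, 8.20% and 10.6% in low glucose, and the RefSeq form 5.40%, 1.96% and 1.43% against 11.5%, 13.7% and 11.3%. In both arms the groups were apart.

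miR-23b-3p, with 71 to 99 reads in low glucose libraries, was less precise. Over the 6 libraries pooled, its most frequent sequence was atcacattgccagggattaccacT, 24 nt with a mismatched final T, at 27.6 ± 17.1% in high and 24.4 ± 6.94% in low glucose. The 21 nt RefSeq form, at 15.6 ± 8.71% and 24.8 ± 6.11%, exceeded it in high glucose library 3 and low glucose library 2. The mean length overlapped over all reads, at 21.70, 20.91 and 20.71 nt in high and 21.92, 21.70 and 21.75 nt in low glucose. Over reads without a mismatch the groups were apart, at 19.53, 19.17 and 20.09 nt in high and 20.73, 20.89 and 20.84 nt in low glucose. Reads of 19 nt or shorter were 27.4 ± 4.95% in high and 9.96 ± 2.08% in low glucose, with the groups apart. Most of these were forms of 16, 17 and 18 nt, at 6.40%, 9.31% and 8.15% in high and 3.20%, 2.77% and 3.32% in low glucose. They are listed under both miR-23 hairpins with the reads divided evenly, so they cannot be placed in either copy. The lengths without a mismatch include them too. The 5′ end sets the seed. Reads with a shifted start were 2.72 ± 0.389% of miR-27b-3p in high and 1.93 ± 0.408% in low glucose, and 0.899 ± 0.323% and 0.374 ± 0.233% of miR-24-3p. For miR-27a-3p they were 8.18 ± 2.85% and 9.48 ± 1.30%, with overlap.

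Bases 2 to 9 of miR-27, UCACAGUG, are also the first 8 bases of miR-128-3p, which alone among the rat mature entries of the RefSeq table starts with them. Its mature sequence is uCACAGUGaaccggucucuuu, so that its seed is shifted by 1 base against that of miR-27. miR-128-3p was read at 14294, 20310 and 20133 CPM in high glucose and at 1462, 1387 and 3126 CPM in low glucose (log2 fold change 3.20, SE 0.35, edgeR adjusted p = 0.000200). It stood above miR-27b-3p in each high glucose library and below it in each low glucose library.

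A list of miRNAs with known roles in vessel growth, which holds the members themselves, had 28 tested arms. Either arm of a listed miRNA was counted, also a rare one. Of these arms 8 were higher and 10 lower, against 41.1% and 22.6% of all tested arms, with a median log2 fold change of -0.32. miR-24-3p was its most abundant arm. A list of miRNAs of lipid metabolism and fat cell formation, counted in the same way, had 14 tested arms. Of these 5 were higher and 3 lower, against the same 41.1% and 22.6%, with a median of 0.47. The most abundant arm of this list was miR-27b-3p. Both medians lay under that of all tested arms (0.68). The latter was 0.12 with upper quartile scaling, 0.34 with thinned libraries, 0.48 with annotated hairpins alone and 1.05 without low glucose replicate 3. The list medians were not computed in those settings.

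The arms whose levels ran most like those of the most abundant pair of members were ranked among tested arms that averaged at least 50 counts in either group, by the root mean square difference of centred log2 CPM over the 6 libraries. For miR-24-3p they were miR-3559-5p (0.098), miR-152-3p (0.17) and miR-378a-3p (0.18). For miR-27b-3p they were miR-9a-5p (0.090), miR-186-5p (0.17) and miR-99a-5p (0.18).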

How the data were processed

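The 6 libraries, 3 per group, were grouped and numbered by their titles. Per the file headers, the authors deposited raw counts, as reads per distinct sequence and hairpin with its place and mismatches. Novoalign 3.02.12 and cutadapt 1.9.3 appear, without their roles, in the submitters' processing notes. Neither the build nor the version of the hairpin database is given in the sources used here. The deposited counts list sequences of 16 to 40 nt with 2 or more reads and no more than 1 mismatch, and reads listed under several hairpins are divided among them and rounded.

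From these, reads were summed per arm, split at the midpoint of the hairpin by the centre of the read, with copies of one miRNA joined. edgeR 4.0.16 (R 4.3.3) was fitted on all arms with TMM scaling, filterByExpr (minimum count 10) and robust dispersions, after it had been tested on simulated data. CPM were TMM-scaled. Standard errors were taken as log2 fold change over the root of F. SciPy 1.17.1, NumPy 2.4.6 and pandas 2.3.3 in Python 3.11.15 gave shares and exact permutation tests, and matplotlib 3.10.9 the figures. Shares within arms used arms with 20 or more reads in every library. Alternatives were other scalings, filters and tools (DESeq2 1.42.0), a replicate block, thinned counts, other choices of reads, and fits without each library.

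Named miRNAs were all members, miR-128-3p, miR-3074, the 3 arms most like each of the 2 most abundant members, and the most abundant arm of each list. miR-181a-5p was chosen after its values were seen. The members and lists were chosen with earlier results of these data known. The p-values reflect only how these libraries vary, which may be technical. Reads carry no molecular identifiers here, so low counts have counting error at least.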

Additional observations from a re-analysis of the deposited data

How the results depend on the processing

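Of the member arms, 2 were higher and 4 lower in high glucose. The number higher was 1 with upper quartile scaling and with thinned counts, where miR-23b-5p had too few reads to test, and 1 to 2 when each library was left out in turn, where miR-23b-5p was not tested without high glucose replicate 1 or 2 and miR-27a-3p was not called without low glucose replicate 1. The number lower was 2 to 4 when each library was left out, at 2 without low glucose replicate 1 or 2. Upper quartile scaling put the share of higher calls among all called arms at 49.5%, against 64.6%. The fold change of miR-27b-3p was negative with RLE scaling (-0.021), library totals alone (-0.017), DESeq2 (-0.019), upper quartile scaling (-0.47) and, by choice of reads, past the differing base (-0.68), and ran from -0.033 to 0.29 when each library was left out, negative without high glucose replicate 2. The difference in the a share of miR-23-3p was 0.79 points past the differing base and 0.66 with sequences listed under 1 hairpin, and that of miR-27-3p 0.44 without mismatches and 19.04 past the differing base. The cause was not tested. With the most abundant sequence of each arm alone, miR-23b-3p and miR-23b-5p were not called (edgeR adjusted p = 0.276 and 0.0537), and miR-27b-3p (2.47) and miR-27a-5p (3.30) were called higher. That sequence was chosen from the pooled reads of both groups, most of them from high glucose, so the choice favours higher calls. With reads without a mismatch, 2 were again higher, but miR-27a-5p (3.48) was called and miR-27a-3p (0.24) was not, and the differences in miR-27a-3p length (-0.68 nt), miR-23b-3p length (-1.22 nt) and miR-27a 3p share (-3.50 points) were larger.

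The deviations of same-numbered libraries from their group means correlated at 0.04, -0.0007 and -0.03. Only the libraries numbered 1 were each other's best match. With low glucose libraries this shallow, such correlations cannot settle whether same-numbered libraries shared a culture or day. With a replicate block, 2 members were higher and 3 lower, since miR-24-5p was at -0.64 (edgeR adjusted p = 0.0653), and 105 arms in all were higher and 58 lower. Of 163 log2 fold changes under these alternatives, 139 kept direction and call, and of 240 shares and lengths 233 moved by less than the spread between replicates. The 163 leave out settings in which an arm was not tested. These were rare 5p arms (miR-23b-5p, miR-27a-5p and miR-27b-5p) with thinned libraries or, for miR-23b-5p and miR-27a-5p, without a high glucose library. Depth limits the low glucose group, above all for the rare 5p arms.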
